A study of Mus musculus with 6 samples.

Results

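Inflammatory cytokine ligands are the secreted proteins with which macrophages, glia and stromal cells start, relay and limit an immune response. The 10 genes described here were taken by symbol from a table of 45703 genes, and all 10 were found: Il1a, Il1b and Il1rn of the interleukin-1 system, its relatives Il18 and Il33, the interleukin-6 family ligands Il6 and Lif, the tumour necrosis factor gene Tnf, and Csf1 and Il34, which encode the ligands of the macrophage receptor CSF1R. They were measured by RNA sequencing in 6 replicate primary cultures of mouse DRG (dorsal root ganglia), which hold the cell bodies of sensory neurons with their glia. The donors were wild-type C57BL/6 mice of 4 to 6 weeks. Mixed cells stayed in vitro for 7 days with 10% fetal calf serum and the growth factors EGF and FGF (10 ng/ml each), and RNA from 2 dishes was pooled for each sample. There was 1 group and no untreated tissue or second condition, so levels were compared between genes within a culture and between cultures, and no change with culture could be measured. Nothing in the labels says that the cultures came from separate animals beyond the term biological replicate.

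In the interleukin-1 system, IL-1 alpha and IL-1 beta bind the receptor IL1R1, which then recruits IL1RAP, and the protein of Il1rn occupies IL1R1 without signalling. IL-1 beta and IL-18 are made as precursors that caspase-1 cuts in an inflammasome, whereas IL-33 is stored in nuclei, is released from damaged cells and acts on the receptor encoded by Il1rl1. Interleukin-6 and LIF both signal through gp130, the product of Il6st, and act on sensory neurons and glia after nerve injury. In ganglia, CSF1 is made by injured neurons and, with IL-34, sustains macrophages.

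For 9 of the 10 genes, RefSeq (GRCm38.p6) gave sequence upstream of an annotated transcript start, in 12 windows of 250 bases, and Il34 had no entry. The sequences that follow are 4 windows shown for Il1rn, Lif and Il33, which had the largest spread of log2 CPM between cultures among the 6 genes at 1 CPM or more in every library, and 1 window each for Il1b, which was almost absent, and Il6. They read 5′ to 3′ on the strand of the gene and end at the base before the start. Capitals mark matches on either strand to TGANTCA (the AP-1 element), to GGGA, any base and TTTCC (an NF-kB element) or to TATAAA (the TATA box).
Il1rn, chr2:24336610-24336859, plus strand: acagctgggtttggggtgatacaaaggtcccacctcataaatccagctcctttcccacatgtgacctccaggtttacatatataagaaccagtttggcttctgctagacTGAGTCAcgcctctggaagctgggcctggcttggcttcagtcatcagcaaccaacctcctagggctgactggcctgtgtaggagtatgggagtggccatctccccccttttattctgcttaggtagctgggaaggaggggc
Lif, chr11:4257318-4257567, plus strand: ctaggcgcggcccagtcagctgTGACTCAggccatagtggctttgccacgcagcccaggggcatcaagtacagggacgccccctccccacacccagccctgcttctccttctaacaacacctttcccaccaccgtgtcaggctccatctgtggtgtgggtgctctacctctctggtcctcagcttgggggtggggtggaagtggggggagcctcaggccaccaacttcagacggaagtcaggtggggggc
Il33, first start, chr19:29924863-29925112, plus strand: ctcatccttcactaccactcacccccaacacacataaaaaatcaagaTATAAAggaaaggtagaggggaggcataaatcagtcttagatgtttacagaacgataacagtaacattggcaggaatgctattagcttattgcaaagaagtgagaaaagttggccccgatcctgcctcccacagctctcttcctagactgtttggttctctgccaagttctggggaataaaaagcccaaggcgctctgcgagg
Il33, inner start, chr19:29945540-29945789, plus strand: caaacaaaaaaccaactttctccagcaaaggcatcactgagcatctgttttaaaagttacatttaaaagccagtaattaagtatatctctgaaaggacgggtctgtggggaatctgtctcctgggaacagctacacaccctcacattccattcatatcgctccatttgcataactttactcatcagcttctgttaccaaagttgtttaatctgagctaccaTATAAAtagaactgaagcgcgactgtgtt
Il1b, chr2:129371140-129371389, minus strand: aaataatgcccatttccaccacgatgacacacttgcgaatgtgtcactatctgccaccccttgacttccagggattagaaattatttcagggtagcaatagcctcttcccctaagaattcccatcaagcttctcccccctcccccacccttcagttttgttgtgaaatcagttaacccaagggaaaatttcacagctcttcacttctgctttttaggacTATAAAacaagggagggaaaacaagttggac
Il6, chr5:30012864-30013113, plus strand: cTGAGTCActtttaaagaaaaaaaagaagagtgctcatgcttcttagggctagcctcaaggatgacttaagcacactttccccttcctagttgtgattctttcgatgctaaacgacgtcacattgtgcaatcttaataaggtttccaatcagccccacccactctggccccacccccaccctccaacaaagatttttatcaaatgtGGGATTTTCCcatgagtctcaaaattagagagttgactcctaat

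The AP-1 letters were found upstream of 4 of the 9 genes (Il1rn, Lif, Il6 and Il1a), in 4 of the 12 windows, against 6.75% of the 32851 windows of all genes. The match began 141 bases before the start in Il1rn, 228 in Lif, 249 in Il6 and 12 in Il1a. The NF-kB letters were present for Il6 and Csf1, in 2 of the 12 windows against 0.356% of all windows. TATAAA was present in 6 of the 12 windows, from the genes Il18, Il1a, Il1b, Il33 and Tnf, against 12.4% of all windows. In Il1a it began 32 bases before the start, in Il1b 31, in Tnf 29 and at the inner start of Il33 also 29. In Il18 the match began 175 bases before the start, as TTTATA on the opposite strand, and at the first start of Il33 203. The motifs do not overlap one another in these windows, and a match describes letters and not a bound site. Of the 3 windows of Il1rn, only that of the first start is shown above. The others overlap each other and held no match to any of the motifs. Counts were made per gene, so the 3 windows of Il1rn and the 2 of Il33 cannot be assigned their own levels.

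The 6 libraries held 20070639 to 22968642 counts. Levels are given as CPM, the count of a gene scaled to a library total of 1000000 counts, and for comparisons between genes as CPM per kilobase (kb) of combined exon length. Glial genes (Sox10 at 544 to 804 CPM, Erbb3 at 579 to 905 CPM) and neuronal genes (Tubb3 at 317 to 601 CPM) were present in every culture, as the label of the tissue implies. Replicates 1 and 5 stood furthest from the others, with a mean Pearson's r across genes of 0.972 and 0.969 against 0.983 to 0.985 for the other 4. Of 12 macrophage markers, 8 were at 1 CPM or more in every library, and the list summed to between 54.8 CPM (replicate 1) and 540 CPM (replicate 5). Markers of neutrophils and lymphocytes were close to 0: 4 of 6 and 6 of 7 had at most 3 counts in every library, and S100a9, Elane and Ms4a1 had 0.

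Il34 and Csf1 had the highest mean levels per kb of the cytokine genes, and Il1rn, Il33 and Lif followed with wide differences between cultures. Il6 and Il18 were lower, and Tnf, Il1b and Il1a lowest. Il34 and Csf1 were not separated from Il1rn by the test of pairs given with the order of the genes, so these sets are a description. Of the 10 genes, 6 reached 1 CPM or more in every library (Il34, Csf1, Il1rn, Il33, Lif and Il18), where 30.4% of all genes and 55.8% of protein-coding genes did. Il6 reached it in 4 libraries and Tnf, Il1a and Il1b in 0. The 10 genes together took 325 ± 96.2 CPM (SD, n = 6), of which Csf1 and Il34 made up 69.4% ± 15.9, from 45.6% in replicate 5 to 89.0% in replicate 1.

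**Figure D1:**
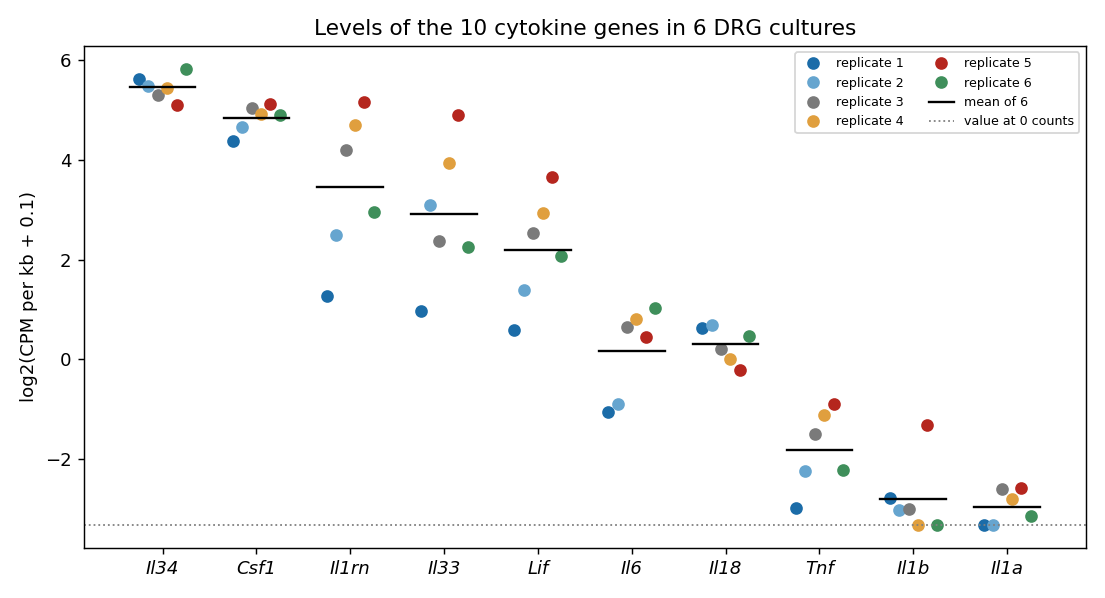
Levels of the 10 genes as log2(CPM per kb + 0.1), ordered by mean CPM per kb; points are the 6 cultures, black bars their mean on this log scale and the dotted line the value at 0 counts. Il34 and Csf1 sit highest with little spread, and Il1rn, Il33 and Lif spread widely with replicate 1 lowest and replicate 5 highest. Il1a and Il1b lie at or near the line for 0 counts, except Il1b in replicate 5, at 0.300 CPM per kb.

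The genes of the CSF1R ligands were the highest 2 per kb in replicates 1, 2, 3, 4 and 6, while in replicate 5 Il1rn was highest, at 35.5 CPM per kb against 34.8 for Csf1 and 34.1 for Il34. Il34 (chromosome 8, 110741829 to 110805949, GRCm38.p6, minus strand) was measured at 93.9, 84.7, 74.9, 83.0, 65.1 and 108 CPM in replicates 1 to 6. Its highest culture was replicate 6 and its lowest replicate 5, a 1.66-fold range. Csf1 (chromosome 3, 107741048 to 107760469, minus strand) was measured at 91.0, 112, 146, 133, 154 and 132 CPM. Its lowest culture was replicate 1 and its highest replicate 5, a 1.69-fold range, so replicate 5 was the lowest culture for Il34 and the highest for Csf1. Per kb of exon, Il34 averaged 44.5 ± 7.84 CPM and Csf1 28.9 ± 5.20 CPM (SD, n = 6), and Il34 lay above 90.2% and Csf1 above 84.4% of the genes kept for testing.

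The ratio of Il34 to Csf1 per kb was 2.39, 1.76, 1.19, 1.45, 0.981 and 1.90 in replicates 1 to 6. Il34 was thus the higher in 5 of 6 cultures, and the difference, 0.63 ± 0.47 on the log2 scale, did not pass (two-sided exact sign-flip permutation p = 0.0625, adjusted p = 0.0670 over 45 pairs). The direction depends on dividing by exon length, which is 1.907 kb for Il34 and 4.422 kb for Csf1: in CPM without length the mean difference was -0.59. The receptor gene Csf1r, itself one of the macrophage markers, was at 3.35, 6.15, 28.0, 26.6, 39.6 and 8.61 CPM in replicates 1 to 6, lowest in replicate 1 and highest in replicate 5. Ptprz1, a second receptor of IL-34 found on glia, averaged 78.4 ± 24.3 CPM (SD, n = 6).

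Within the interleukin-1 system the antagonist gene was far above both agonist genes. Il1rn (chromosome 2, 24336860 to 24351491, plus strand) was measured at 6.49, 15.5, 51.2, 72.5, 99.6 and 21.5 CPM in replicates 1 to 6. Replicates 3, 4 and 5 were all above replicates 1, 2 and 6, and the highest was 15.4-fold above the lowest. Il1b (chromosome 2, 129364569 to 129371164, minus strand) had 2, 1, 1, 0, 12 and 0 counts, so 12 of its 16 counts came from replicate 5. Il1a (chromosome 2, 129299609 to 129310186, minus strand) had 0, 0, 5, 3, 5 and 1 counts.

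Pooled over the libraries, Il1b stood at 0.125 CPM (exact 95% binomial interval 0.0712 to 0.202) and Il1a at 0.109 CPM (0.0596 to 0.183), intervals that cover counting error only. In the libraries with 0 counts, a floor of 3 counts corresponds to 0.131 to 0.149 CPM. Per kb, the pooled Il1rn level was 238 times that of Il1b (counting interval 146 to 417) and 501 times that of Il1a (298 to 917). Without replicate 5, Il1b was left with 4 counts and its ratio was 597 (counting interval 233 to 2192). The excess over each was present in 6 of 6 cultures, at 6.26 ± 1.38 for Il1b and 6.42 ± 1.17 for Il1a on the log2 scale, where the added 0.1 understates it (exact sign-flip permutation p = 0.0312, the smallest possible, adjusted p = 0.0391 over 45 pairs, for each). Il1a and Il1b were not separated from each other (0.17 ± 0.67, higher for Il1b in 3 of 6 cultures, exact sign-flip permutation, adjusted p = 0.639). An antisense gene overlaps each of them: the one over Il1a reached 12 counts in a library, and the one over Il1b had 0.

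The receptor genes of this system spanned a wide range, and by mean level only Il1rap was above Il1rn, in pairs that were not tested. In single cultures, Il1r1 was above Il1rn in CPM in replicates 1 and 6 only. Per kb, Il1rn at 35.5 CPM was above Il1rap at 22.4 CPM in replicate 5 only. Il1rap, the shared accessory chain, averaged 419 ± 101 CPM, and Il1r1, the signalling receptor, 23.9 ± 12.96 CPM (SD, n = 6), with 10.1 CPM in replicate 1 as its lowest value and 46.1 CPM in replicate 5 as its highest. Il1r2, the decoy receptor, had at most 10 counts. Casp1, whose enzyme cuts the IL-1 beta and IL-18 precursors, averaged 7.76 ± 2.51 CPM, and Nlrp3, the sensor that assembles an inflammasome, 0.598 ± 0.515 CPM. The IL-36 ligand genes, listed in the table under older symbols, and their antagonist all had 0 counts in every library.

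Il33 and Il18, relatives of IL-1, differed in both level and spread. Il33 (chromosome 19, 29925113 to 29960718, plus strand) was measured at 5.40, 24.6, 14.7, 44.3, 87.1 and 13.5 CPM in replicates 1 to 6, a 16.1-fold range, with replicate 5 far above replicate 4, the next culture. Il18 (chromosome 9, 50554700 to 50581841, plus strand) was measured at 2.48, 2.60, 1.80, 1.54, 1.29 and 2.199 CPM. Its range was 2.01-fold, and its lowest cultures, 4 and 5, were the highest for Il33. Per kb, Il33 exceeded Il18 in 6 of 6 cultures by 2.62 ± 1.69 on the log2 scale (exact sign-flip permutation p = 0.0312, adjusted p = 0.0391). The ratio ran from 1.28 in replicate 1 to 39.6 in replicate 5.

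Apart from Il1rap (419 ± 101 CPM), whose accessory chain IL-33 shares with IL-1 but not with IL-18, the receptor genes for these ligands were low. Il1rl1, the IL-33 receptor, averaged 3.73 ± 3.00 CPM, Il18rap 0.794 ± 0.485 CPM, and Il18r1, which binds IL-18, had at most 3 counts in every library and was not detectable at this depth. Il18bp, a secreted protein that captures IL-18, averaged 3.91 ± 0.810 CPM (SD, n = 6), above Il18 itself at 1.99 ± 0.525 CPM. Per kb the order was the same, at 1.85 ± 0.384 and 1.16 ± 0.307 CPM, and this pair was not tested.

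Of the gp130 ligands, Lif was above Il6 in each culture. Lif (chromosome 11, 4257568 to 4272514, plus strand) was measured at 7.97, 14.3, 32.4, 42.5, 70.6 and 23.3 CPM in replicates 1 to 6. The order of the cultures was the same as for Il1rn: 1, 2, 6, 3, 4 and 5, from low to high, over an 8.86-fold range. Il6 (chromosome 5, 30013114 to 30019975, plus strand) was measured at 0.435, 0.501, 1.66, 1.89, 1.43 and 2.199 CPM, from 10 to 46 counts. Replicates 1 and 2 were the low cultures, and replicate 6, not 5, was the highest.

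Per kb, Lif exceeded Il6 by 2.04 ± 0.72 on the log2 scale in 6 of 6 cultures (exact sign-flip permutation p = 0.0312, adjusted p = 0.0391), with a ratio of 2.14 in replicate 6 and 9.91 in replicate 5. Their receptor chains were measured in every culture: Il6st, shared by both, averaged 933 ± 92.8 CPM, Lifr, for LIF, 94.5 ± 21.7 CPM and Il6ra, for interleukin-6, 33.3 ± 10.1 CPM (SD, n = 6). Osmr, the oncostatin M receptor chain of the same family, averaged 127 ± 22.96 CPM. The genes of 2 other ligands that act through gp130 had higher mean levels than Lif per kb, pairs that were not tested. Clcf1 averaged 42.0 ± 6.97 CPM per kb and Cntf, a factor of Schwann cells, 28.3 ± 4.27, against 5.62 ± 3.99 for Lif (SD, n = 6). Clcf1 was counted in fractions in 5 libraries and Cntf in 2, so some of their reads may be shared with other places.

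Tnf (chromosome 17, 35199367 to 35202007, minus strand) had 1, 4, 9, 12, 15 and 4 counts, or 0.0435, 0.182, 0.415, 0.598, 0.717 and 0.191 CPM. Replicates 3, 4 and 5 were again the highest. The ratio of Il1rn to Tnf per kb was 73.1 when pooled over the libraries (counting interval 54.6 to 100). In single cultures it ran from 50.0 in replicate 2 to 87.7 in replicate 1. These ends rest on 4 and 1 counts of Tnf, so they cannot show whether the ratio was constant. Tnfrsf1a, the broadly expressed TNF receptor, averaged 180 ± 15.8 CPM and Tnfrsf1b 36.2 ± 7.44 CPM (SD, n = 6). Adam17, the protease that sheds TNF from the cell surface, averaged 153 ± 23.6 CPM. Lta and Ltb, relatives of Tnf made mainly by lymphocytes, reached at most 8 and 2 counts.

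Put in order by mean level per kb, the genes ran Il34, Csf1, Il1rn, Il33, Lif, Il6, Il18, Tnf, Il1b and Il1a. Among all 45 pairs, 36 differed in the same direction in 6 of 6 cultures and passed (exact sign-flip permutation, adjusted p = 0.0391 for each). Of the 9 neighbouring pairs only 2 did: Lif over Il6, and Il18 over Tnf by 2.13 ± 1.14 on the log2 scale. Csf1 exceeded Il1rn by 1.38 ± 1.23 and Il33 exceeded Lif by 0.73 ± 0.71, each in 5 of 6 cultures (exact sign-flip permutation p = 0.0625, adjusted p = 0.0670). In CPM without length, Csf1 over Il1rn was 2.04 and passed (exact sign-flip permutation, adjusted p = 0.0402), and Il33 over Lif was -0.22. Il34 exceeded Il1rn by 2.00 ± 1.67, also in 5 of 6 cultures (exact sign-flip permutation p = 0.0625, adjusted p = 0.0670). Il1rn and Il33 differed by 0.54 ± 0.80 (exact sign-flip permutation p = 0.156, adjusted p = 0.164), and Tnf and Il1b by 0.97 ± 0.84 (exact sign-flip permutation p = 0.0625, adjusted p = 0.0670). Il6 had a mean level of 1.19 CPM per kb against 1.16 for Il18, but its mean on the log2 scale was the lower, by -0.14 ± 1.17 (exact sign-flip permutation p = 0.781, adjusted p = 0.781). With 6 cultures the exact sign-flip permutation test cannot go below p = 0.0312. At this limit, the adjusted p of a pair depends on how many of the tested pairs keep 1 direction. Over the 15 pairs of the 6 genes at 1 CPM or more in every library, 0 passed although 9 kept 1 direction in all cultures. Il33 over Il18 then had an exact sign-flip permutation adjusted p of 0.0521. Passing among the 45 pairs thus rested in part on pairs with the genes under that level.

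**Figure D2:**
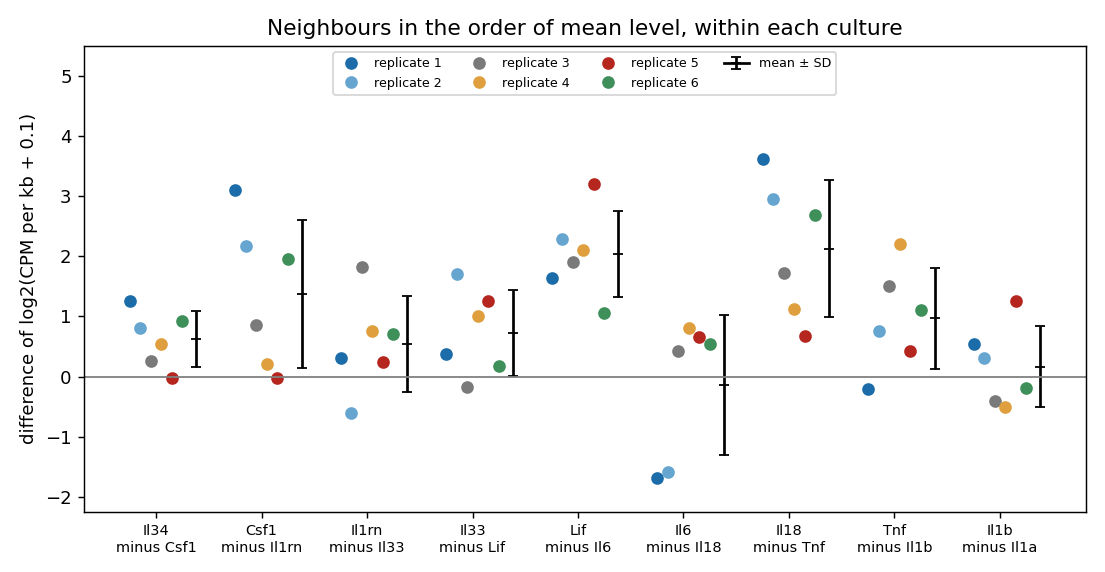
Differences of log2(CPM per kb + 0.1) between neighbours in the order of mean level, taken within each culture; points are the 6 cultures and bars the mean and SD. All 6 points lie above 0 for Lif minus Il6 and Il18 minus Tnf, and points fall on both sides of 0 for the other 7 pairs.

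The spread between cultures was the second question that the replicates allowed. The 6 genes that passed edgeR's filter on low counts all varied beyond counting noise (chi-square test over 14998 genes, Benjamini-Hochberg adjusted p under 0.05), but 76.3% of all genes tested did, so that count says little about these genes. The size of the spread set 3 of them apart from the other 3. The SD of log2 CPM was 1.46 for Il1rn, 1.37 for Il33 and 1.10 for Lif, larger than for 99.6%, 99.3% and 98.4% of the genes tested. It was 0.31 for Il18, 0.28 for Csf1 and 0.25 for Il34, larger than for 79.3%, 74.6% and 71.0%. The median over all genes tested was 0.16, and over the 6 genes 0.71.

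A quasi-likelihood fit in edgeR compared the spread of each gene with that of genes of like abundance. It called 0 of 14998 genes at an adjusted p under 0.05 and 809 (5.39%) at an unadjusted p under 0.05. Among the latter were Il1rn (unadjusted p = 0.00309), Il33 (0.00372) and Lif (0.00689), each with an edgeR adjusted p of 0.844. DESeq2 marked the same 3 genes as dispersion outliers, a class that held 512 genes (3.41%). In simulated counts, 200 genes were changed 16-fold as a single step in 3 of the 6 libraries. The edgeR test recovered 200 of them with spread on the trend and 104 with gene-wise spread. The lack of calls at an adjusted p under 0.05 therefore does not show that a spread was usual. For Csf1, Il34 and Il18 the edgeR unadjusted p was 0.130, 0.108 and 0.332. For Il18 even the excess over counting noise (chi-square 16.4 on 5 degrees of freedom, adjusted p = 0.00868) was lost without replicate 5 (chi-square adjusted p = 0.0828).

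The macrophage, fibroblast, mural and endothelial marker lists had the same lowest and highest cultures as Il1rn, Il33, Lif and Csf1. Il34 and Il18 instead had their lowest value in replicate 5. From replicate 1 to replicate 5, the summed level of the macrophage list was 54.8, 91.1, 410, 510 and 540 CPM, with 156 CPM in replicate 6. The libraries thus fell into 2 sets of 3 on this list, the same sets that Il1rn gave, and for that reason no pooled correlation with the macrophage score is given. The score of a list is the mean log2(CPM per kb + 0.1) of its genes. Among all genes tested, 15.2% were related to the macrophage score at an unadjusted exact permutation p under 0.05 (Pearson's r), and 0 passed adjustment. The order of the cultures by macrophage score, 1, 2, 6, 3, 4 and 5, was the order by Il1rn and by Lif. In the same way the fibroblast list ran from 3339 to 13980 CPM, the mural list from 150 to 1203 CPM and the endothelial list from 8.14 to 116 CPM, with all 4 lists lowest in replicate 1 and highest in replicate 5. In bulk RNA, more cells of a type and more RNA per cell cannot be told apart, and the part of these lists in the cytokine levels was not tested.

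**Figure D3:**
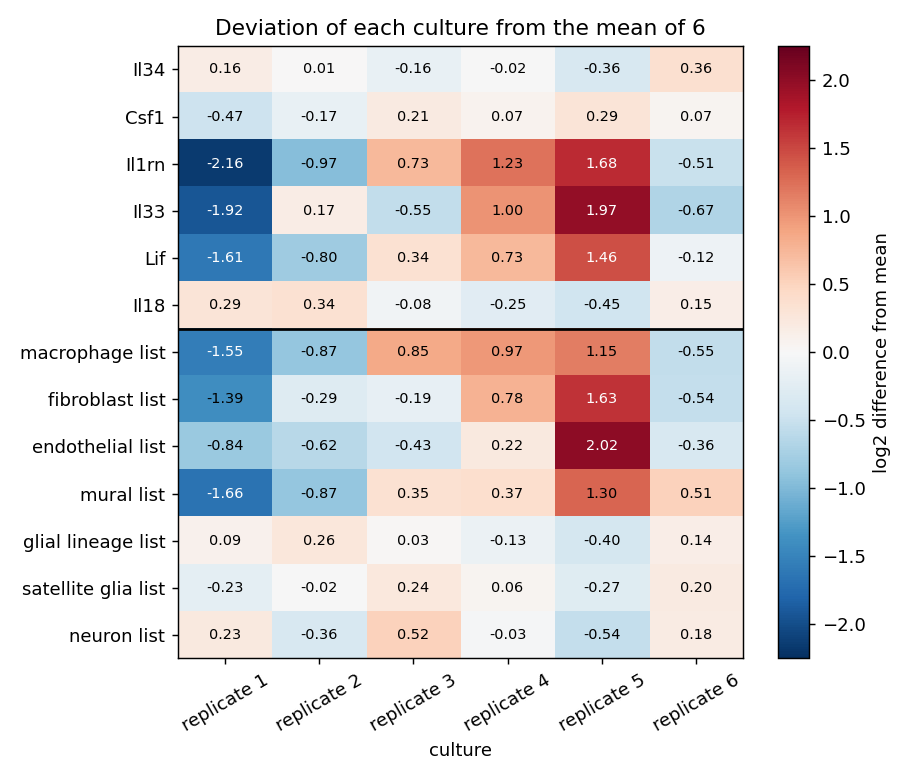
Deviation of each culture from the mean of the 6 cultures, in log2 units, for the 6 cytokine genes at 1 CPM or more in every library (above the line, log2(CPM + 0.5)) and for the scores of 7 marker lists (below the line). Il1rn, Il33 and Lif and the macrophage, fibroblast, endothelial and mural lists are lowest in replicate 1 and highest in replicate 5, while Il34 and Il18 have their lowest value in replicate 5.

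With the fibroblast score, which showed no such gap, Il33 had Pearson's r = 0.97 over the 6 cultures (exact permutation p = 0.00417, adjusted p = 0.161). Its Spearman's rho was 0.94, with an exact permutation p of 0.0167 and an adjusted p of 0.250. Without replicates 1 and 5, the libraries furthest from the median score, r was 0.88. Lif had r = 0.93 (exact permutation p = 0.0125, adjusted p = 0.200) and Il1rn r = 0.92 (exact permutation p = 0.00694, adjusted p = 0.176), with rho = 0.94 for both (exact permutation p = 0.0167, adjusted p = 0.250) and r = 0.72 and 0.79 without replicates 1 and 5. Il18 ran the other way, with r = -0.88 (exact permutation p = 0.0153, adjusted p = 0.209), rho = -0.83 (exact permutation p = 0.0583, adjusted p = 0.361) and r = -0.75 without those libraries. Adjustment was over the relations of all 14998 genes with the macrophage, fibroblast and glial lineage lists, and 0 relations of any gene passed it.

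At an unadjusted p under 0.05, 4 of the 6 cytokine genes were related to the fibroblast score, and 20.6% of all genes were. The glial lineage score was lowest in replicate 5 (6.47) and highest in replicate 2 (7.14). Il18 had r = 0.94 with it (exact permutation p = 0.00278, adjusted p = 0.148), rho = 0.94 (exact permutation p = 0.0167, adjusted p = 0.250) and r = 0.86 without replicates 2 and 5. Lif had r = -0.81 (exact permutation p = 0.0458, adjusted p = 0.278), rho = -0.83 (exact permutation p = 0.0583, adjusted p = 0.361) and r = -0.62 without them. These were the 2 of 6 genes with an unadjusted p under 0.05, against 15.7% of all genes. All scores share the libraries and their scaling, and the labels name no culture or sequencing batch within which relations could be recomputed.

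**Figure D4:**
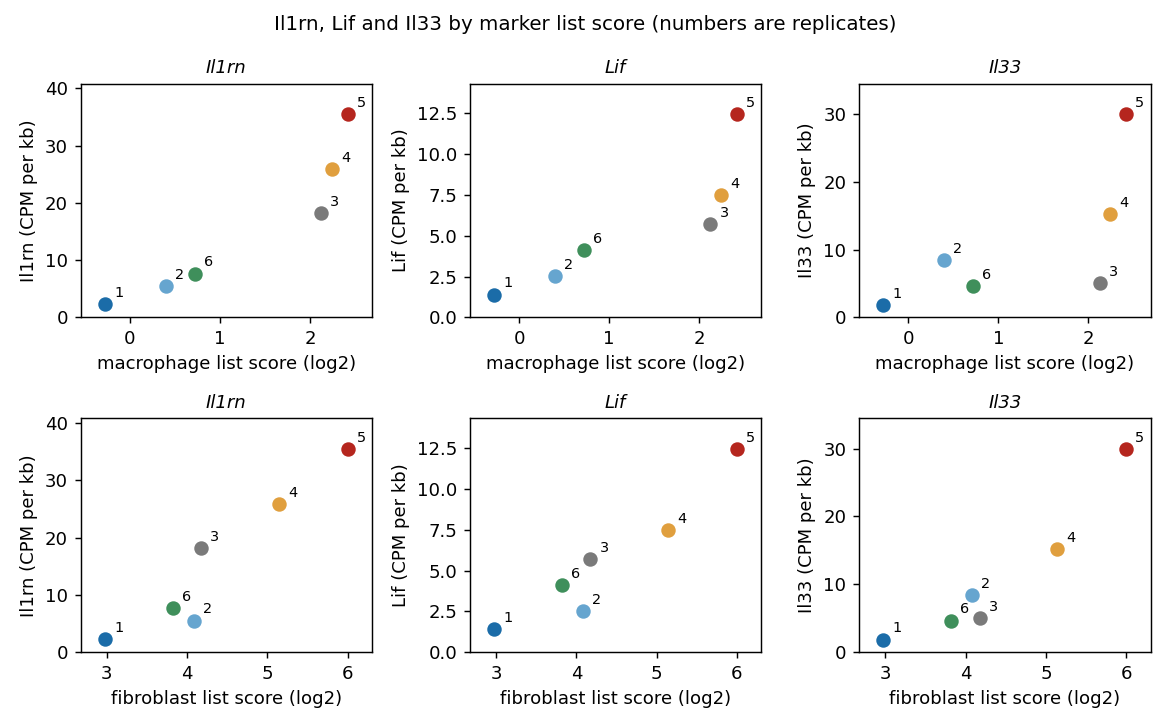
Levels of Il1rn, Lif and Il33 in CPM per kb (vertical axes, from 0) against the score of the macrophage list (upper row) and the fibroblast list (lower row), in log2 units; each numbered point is 1 culture. On the macrophage score replicates 3, 4 and 5 lie apart from 1, 2 and 6, and Il33 in replicate 3 is 5.06 CPM per kb, below its 8.47 in replicate 2, whereas Il1rn and Lif keep the order of the score.

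The genes whose deviations over the 6 cultures lay closest to each cytokine gene, by root mean square difference of centred log2 CPM among 11943 genes of at least 5 CPM on average, are a description of these libraries. For Il1rn they were Lilrb4a (0.15), Itgam (0.16) and Stab1 (0.17), where the median distance of all genes was 1.33. Itgam belongs to the macrophage list, and Lilrb4a encodes an inhibitory receptor of myeloid cells. For Il33 they were Col3a1 (0.19), a fibroblast marker of the list that encodes a fibrillar collagen, Vcan (0.20) and Fibin (0.20), with a median of 1.26. For Lif they were Dkk3 (0.082), Cyp1b1 (0.11) and Steap2 (0.13), with a median of 1.00.

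For the less variable genes the distances were smaller throughout. Il34 lay closest to Cyp51 (0.043), Myl6b (0.065) and Mvk (0.081). Cyp51 and Mvk encode enzymes of sterol synthesis. Csf1 lay closest to Adam15 (0.040), Crybg3 (0.050) and Pnmal2 (0.054), and Il18 to Ampd3 (0.057), Mettl27 (0.059) and Agpat3 (0.065). Among the cytokine genes themselves the smallest distances were those of Il34 with Il18 (0.20) and of Il1rn with Lif (0.39), and the largest that of Il1rn with Il18 (1.61).

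The pathway genes listed beside the ligands were counted in the same way, against the 55.8% of protein-coding genes at 1 CPM or more in every library and the 76.3% of tested genes that varied beyond counting noise. Among 14 receptor genes, 10 were at 1 CPM or more in every library, and 11 of the 11 tested varied beyond counting noise, with a median SD of log2 CPM of 0.38. Among 9 genes for processing and decoys, 6 were at that level, and 8 of 8 tested varied, with a median SD of 0.29. Among 12 signalling and feedback genes, all 12 were at that level, and 11 of 12 varied, Myd88 being the exception (adjusted p = 0.0976), with a median SD of 0.13. The feedback genes Nfkbia and Socs3 averaged 25.2 ± 5.19 and 59.4 ± 15.2 CPM, and Tnfaip3, which encodes a brake on NF-kB signalling, 4.18 ± 1.77 CPM (SD, n = 6). Of 19 other ligand genes, 4 reached 1 CPM in every library, among them Clcf1, Cntf and Il11, and 12 had at most 3 counts in every library, among them the T-cell cytokine genes Il4, Il17a and Ifng with 0.

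**Figure D5:**
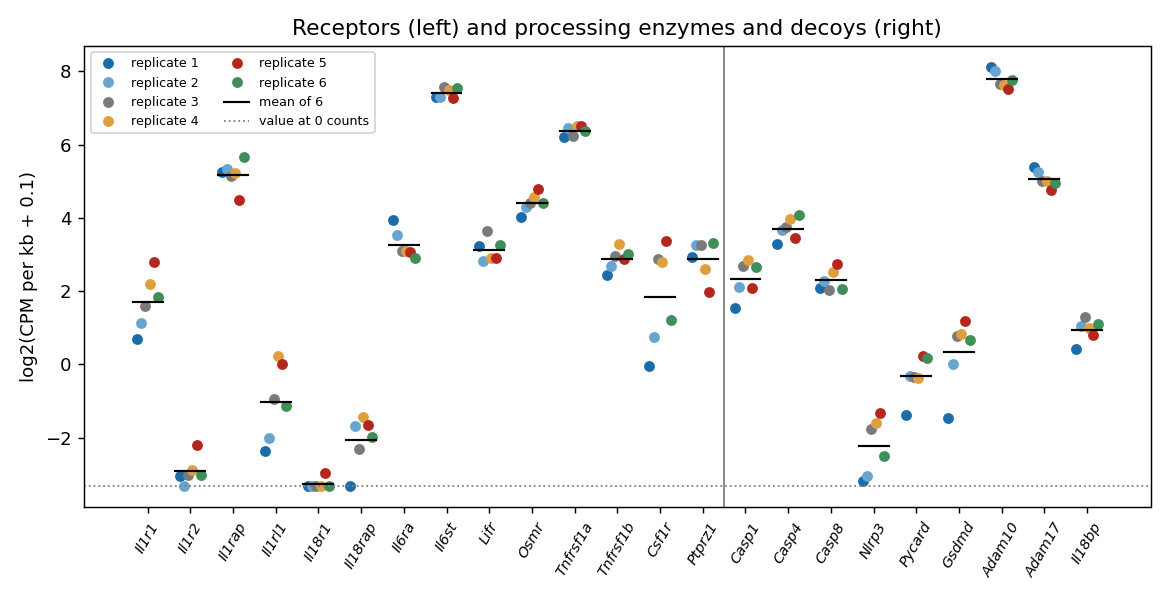
Levels of receptors (left of the line) and of processing enzymes and decoys (right) as log2(CPM per kb + 0.1); points are the 6 cultures, bars their mean on this log scale and the dotted line the value at 0 counts. Il6st, Tnfrsf1a and Adam10 are high in each culture, Csf1r, Il1r1 and Gsdmd are lowest in replicate 1 and highest in replicate 5, and Il18r1 and Il1r2 lie near the line for 0 counts.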

How the data were processed

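Each of the 6 samples, all of 1 group, gave 1 library. The deposited values are estimated counts per gene: per the submitters' processing notes, reads were handled with bcl2fastq 2.20.0.422, cutadapt 2.5, STAR 2.7.2b and featureCounts 1.6.4 on GRCm38.p6. The strand setting and the treatment of reads with several matches are not given in the sources used here, and 13.4% to 14.7% of the authors' values per library were fractions. Among the cytokine genes this touched Csf1 in 1 library only. Counts were rounded before use in R 4.3.3 with DESeq2 1.42.0 and edgeR 4.0.16; CPM used unrounded counts and library totals, or TMM-scaled totals for list scores, relations and distances. No column of another sample was present. The values of 1 listed ligand gene are not reported here.

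Genes were filtered with filterByExpr (14998 kept). The chi-square test set the 6 counts against those expected from TMM-scaled library sizes; the edgeR test set the residual quasi-dispersion of an intercept-only fit against its trended prior. Pairs were tested by sign flips over 64 patterns with a pseudocount of 0.1, and relations over 720 pairings, both two-sided, in Python 3.11.15 with scipy 1.17.1. All p-values were adjusted by the Benjamini-Hochberg method, and the scripts were tested on simulated data. Named genes were the 10 members, the listed pathway and marker genes, and the 3 nearest genes of each member at 1 CPM or more in every library. The members and lists were chosen with earlier results of these data known. P-values measure only the spread between these samples, which may in part be technical. Alternatives were other scalings, pseudocounts, filters and each library left out, with replicates 1 and 5 left out together and the ratios of Il1rn without each library added after seeing the data.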

Additional observations from a re-analysis of the deposited data

Results flagged for a closer look

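Across 20 measures (the levels of the 10 cytokine genes and 10 marker list scores), Dixon's test set the distance from the most extreme culture to the next one against the range of all 6, at the 95% level. Chance flags about 1 group in 20, or 1 of these measures, and 2 exceeded the limit. Il1b stood at 0.300 CPM per kb in replicate 5 and at 0.0455 in the next culture, a gap over range of 0.848 that rests on 12 counts against 2. The endothelial score was 1.62 in replicate 5 and -0.18 in the next culture, a gap over range of 0.627. Replicate 5 also had the highest Il1rn, Il33, Lif, Tnf and Csf1.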

How the results depend on the processing

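Of the alternative values for the 6 counts that answer a comparison, 51 were within 1.5 times the reported count and 9 were not. The number of genes at 1 CPM or more in every library was never further than that from 6. The same 36 pairs passed with pseudocounts of 0.01 and 1 and with TMM and DESeq2 scaling. Without division by length 35 passed, of which 33 were among the 36: Csf1 over Il1rn and Lif over Il18 were gained, and Il1rn over Lif, Il34 over Il33 and Il34 over Lif were lost. The count that passed was 0 of 15 when restricted to the 6 genes at 1 CPM or more in every library. It ranged from 0 to 0 with 1 replicate left out, since 5 cultures cannot give p below 0.0625, and was 0 without replicates 1 and 5, where the limit is 0.125; 36 to 39 pairs kept 1 direction in the former fits and 41 in the latter. DESeq2 called 512 dispersion outliers where edgeR called 0 genes. Among the pairs named in the text, directions reversed only for those that had not passed. Without length these were Il34 over Csf1 (-0.59), Il33 over Lif (-0.22) and Il1b over Il1a (-0.10). The last ran from -0.052 (without replicate 5) to 0.30 with 1 replicate left out and was -0.20 without replicates 1 and 5. Il6 over Il18 ran from -0.33 to 0.17 with 1 left out (0.17 without replicate 1, 0.15 without replicate 2) and was 0.049 without replicates 1 and 5. Depth limits Il1a, Il1b and Tnf, at 14, 16 and 45 counts over all libraries. No paired analysis was possible because the samples form 1 group and share no replicate number with another; differences between genes were taken within each culture.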
